A study of Danio rerio with 6 samples.

Results

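A zebrafish gene can be transcribed from more than one start, and 3318 genes had at least 2 start entries that recurred in every liver library examined here. Each deposited start entry is read here as the first exon of assembled transcripts, from its first base to its splice donor, and its FPKM as that of the transcripts that share it; the tool that made the entries is not named in the sources used here. Entries were matched between libraries by chromosome, both ends of the first exon and strand, and a gene was kept where 2 or more different entries were listed in all 6 libraries. The 3318 genes hold 7793 starts, out of 49169 different start positions over the 6 libraries and 23354 genes in the deposited gene table. The share of a start is its FPKM (fragments scaled to transcript length and sequencing depth) as a percent of the summed FPKM of the gene's recurring starts.

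The series compared livers of adult capn3b-/- mutant zebrafish with livers of adult wild type AB zebrafish, with 3 libraries of each genotype. AB is a laboratory strain, and capn3b is, beside capn3a, a zebrafish gene of calpain 3, which is a cysteine protease activated by calcium. Livers were dissected and their RNA taken up with TRIzol and a spin column, so each value averages over all cell types of the organ. The labels give neither the sex of the fish nor whether each library came from a separate fish, so p-values cover no more than the spread between these 6 libraries, part of which may be technical.

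Alternative promoters let one gene respond to different transcription factors and give its transcripts different first exons. A different first exon can change the 5' untranslated region, and thereby translation, or the N-terminus of the protein, and thereby its targeting. In the liver, the gene of the nuclear receptor HNF4A in mammals is a textbook case, with a promoter used early in development and another used in adult hepatocytes. Some, but not all, mammalian UDP-glucuronosyltransferase genes join alternative first exons to shared downstream exons.

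Depth recovered from the deposited gene FPKM ranged from 17905457 to 18470779 reads in mutant libraries and from 16858409 to 19492592 reads in wild type libraries. The 14 hepatocyte markers examined were all found, and their summed FPKM ranged from 159414 to 164718 in mutant livers and from 152497 to 164617 in wild type livers. Macrophage markers (6 of 6 found) summed to 48.1 to 70.5 FPKM in mutant livers, against 17.5 to 29.8 FPKM in wild type livers. Neutrophil markers (5 of 5 found) summed to 22.6 to 57.3 FPKM in mutant livers, against 6.47 to 11.4 FPKM in wild type livers. Erythrocyte markers (4 of 6 found) summed to 175 to 195 FPKM in mutant livers, against 321 to 388 FPKM in wild type livers. None of the markers found in these lists was at 0 in all libraries. The part of these cells in any start share was not tested, and in whole liver fewer cells of a type and less RNA per cell cannot be told apart.

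In most of the genes that passed a filter on level, 1 start carried all of the FPKM listed for the recurring starts. Of the 3318 genes, 563 were listed at 0 at every start in every library and 1534 had a start sum of 0 in some library. The 1223 genes whose starts reached a sum of 1 FPKM in each of the 6 libraries, with 2901 starts, were described further; a gene silent in one genotype could not pass this filter. Of these 1223 genes, 888 had 2 starts, 244 had 3, 70 had 4, 13 had 5 and 8 had 6. In 726 genes (59.4%) a single start carried 100% of the FPKM in all 6 libraries, and 1141 starts (39.3%) were listed at 0 in all 6 libraries. An exact 0 in such files can be a failed estimate, so it is read here only as listed at 0.

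**Figure D1:**
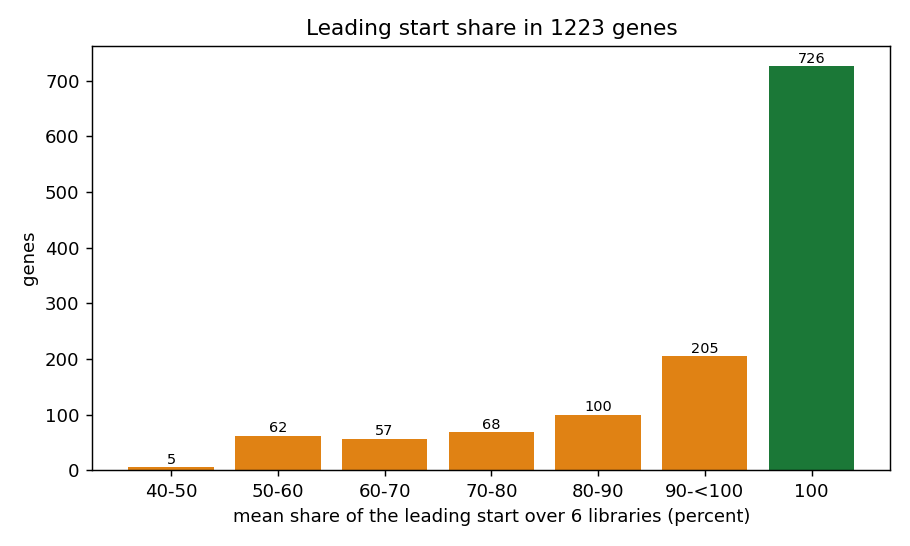
Number of genes (vertical axis) by the mean share of the leading start over the 6 libraries (horizontal axis, percent) for the 1223 genes that passed the filter. The green bar holds the 726 genes with 1 start at 100% in every library, and 67 genes lie below 60%.

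In the other 497 genes (40.6%) the shares varied between libraries. Their leading start had a median share of 86.4%, with quartiles of 70.01% and 94.1%, and in 67 of them its mean share over the 6 libraries was below 60%. The same start led in all 6 libraries in 302 of the 497 genes, and the leading start differed between libraries in 195. The leading 2 starts of these genes lay a median of 1291 bases apart (quartiles 161 and 10355 bases), and those of the 726 genes with 1 used start a median of 1236 bases apart. In 264 of the 497 genes (53.1%) the leading 2 starts were more than 1000 bases apart, against 387 of the 726 (53.3%). In 76 of the 497 genes they lay within 50 bases of each other, and in 19 of those they had the same first base and differed in the splice donor, so that the entries are alternative first exons and not separate start sites. Where a gene had exactly 2 starts, the upstream one led in 211 of 333 varying genes (63.4%), against 441 of 555 genes with 1 used start (79.5%). Varying genes were less abundant, with a median start sum of 5.52 FPKM, against 11.5 FPKM.

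Genes with high start sums illustrate the use of 1 start. Among the genes with the highest start sums were rps2, rpl34, gapdh, rplp0, rps9, rps21, rpl35a, rps27a and rps13, which apart from gapdh encode proteins of the ribosome. In these genes 1 start carried 100% in every library, except in rps2 and rpl35a. For gapdh, a glycolytic dehydrogenase, that was the second of 4 starts (chr16:17289582-17289648), at 4439, 5410 and 4201 FPKM in mutant livers and 6872, 8279 and 7335 FPKM in wild type livers. Mutant libraries were below every wild type library for gapdh, while the share of the start was the same in all 6. A high start sum is not the level of the whole gene. The used start of rpl34, with a first exon of 24 bases, had 3995 to 5647 FPKM, while the gene table gives rpl34 312 to 434 FPKM.

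In rps2 and rpl35a 1 wild type library stood apart. The first start of rps2 (chr3:18249136-18249163) held 100% in mutant livers 1 to 3, against 59.998%, 100% and 100% in wild type livers, the remainder in wild type library 1 going to a longer first exon that begins at the same base. For rpl35a the first start (chr18:45784345-45784432) held 100% in the 3 mutant livers, against 25.6%, 100% and 100% in wild type livers. A similar pattern held for the first start of eif5a, which encodes a translation elongation factor: 71.8%, 67.3% and 66.3% in mutant livers, against 0%, 65.0% and 66.7% in wild type livers. Wild type library 1 was the low one in each gene, and without it the share of rps2 and rpl35a did not vary at all.

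The comparison the design implies is whether the mutant liver used different starts from the wild type liver. No start share passed the threshold. Of 2013 tested starts, 1312 had the same share in every library, and 701 varied and could be fitted. With limma, moderated over all varying starts and with Benjamini-Hochberg adjustment over all 2013, the count past an adjusted p of 0.05 was 0, a background of 0%, and the smallest adjusted p was 0.135, at ppifb. At an unadjusted p under 0.05 there were 35 starts (1.74%) in 27 genes, 13 with a higher and 22 with a lower share in mutant livers. Of a gene with more than 2 starts every start was tested. Where only 2 of these were above 0, as in blzf1 and fam96b, the same difference was counted once in each direction. Counts of starts here and below include such mirrored pairs. The count of 0 held with each library left out in turn. The count became 1 (ppifb) when only the 701 varying starts entered the adjustment. With genes let in whose starts summed to under 1 FPKM in some library, 6 starts passed.

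By medians over the varying starts, the spread between single libraries of 1 genotype was as large as the differences between genotype means. Over the 701 varying starts the median absolute difference of mean share was 9.40 percentage points, while the median SD within a genotype was 11.3 points in mutant livers and 13.1 points in wild type livers (n = 3 each). The difference reached 20 points in 126 starts. The 2 genotypes did not overlap in 51 starts of 43 genes, which is 2.53% of tested starts and 7.28% of varying ones. In 203 of the 701 starts (29.0%) 5 libraries had the same share and 1 stood apart. That single library was a mutant one in 32, 35 and 24 starts (libraries 1 to 3) and a wild type one in 47, 42 and 23 starts. By its form such a start always has a difference below its pooled SD within genotypes. Neither direction along the gene prevailed: among 333 varying genes with 2 starts, the share of the upstream start was higher in mutant livers in 173 and lower in 160, with a median difference of 0.61 points.

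**Figure D2:**
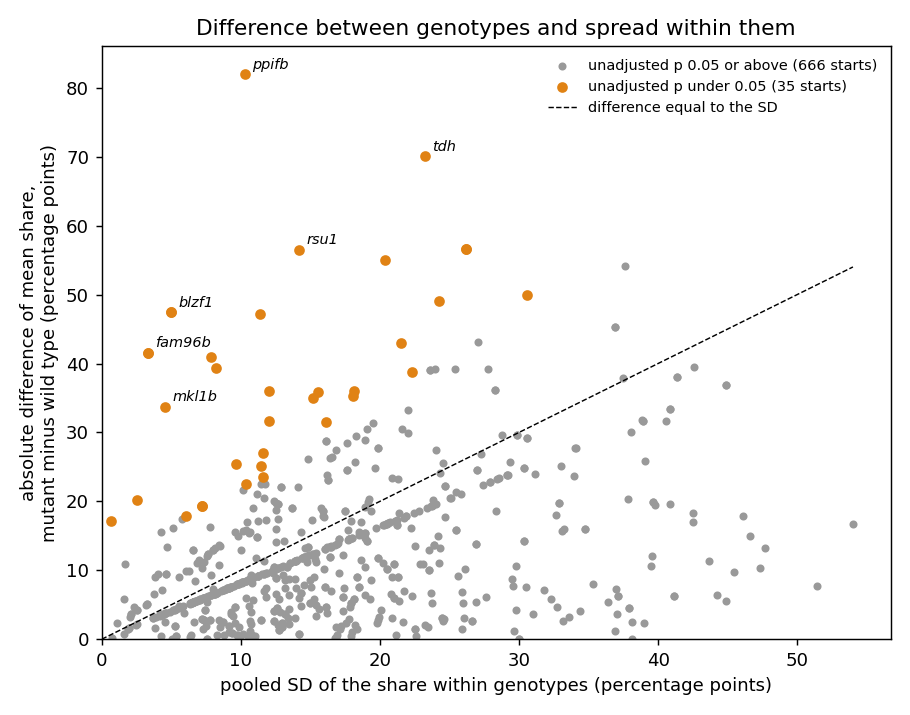
Absolute difference of the mean share between capn3b mutant and wild type AB livers (vertical axis, percentage points) against the pooled SD of the share within genotypes (horizontal axis, percentage points), 1 point for each of the 701 varying starts. Orange points are the 35 starts with an unadjusted p under 0.05, the dashed line marks a difference equal to the SD, and the narrow row of points just below that line includes the starts at which 1 library stood apart from 5 equal ones.

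The leading start by mean share differed between genotypes in 40 of the 1223 genes (3.27%). In 17 of these 40 a start did not overlap between the genotypes, against 43 of all 497 varying genes (8.65%). The 40 were picked by their genotype means, which favours starts that do not overlap, so the 17 are no separate evidence of a switch. The 5 with the largest difference were ppifb, tdh, ecsit, rsu1 and ccbl2, which also head the 20 genes described next. Those 20 genes were taken by the size of the difference among starts whose groups do not overlap, so their separation is part of how they were chosen. None passed the threshold. Reads recovered for the gene, or in ccbl2 for 1 of its 2 gene identifiers, were under 100 in some library in 6 of the 20. Per library they ranged from 6 to 252 in mfap4, from 29 to 48 in gig2n and from 53 to 106 in bet1l. The range was 53 to 127 in thumpd3, 76 to 181 in gsap and 0 to 330 in ccbl2. The 0 of ccbl2 was in mutant library 2, where starts in its other identifier had 3.94 and 1.42 FPKM. Its shares are taken over starts of both identifiers, so this read range does not cover all of them.

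**Figure D3:**
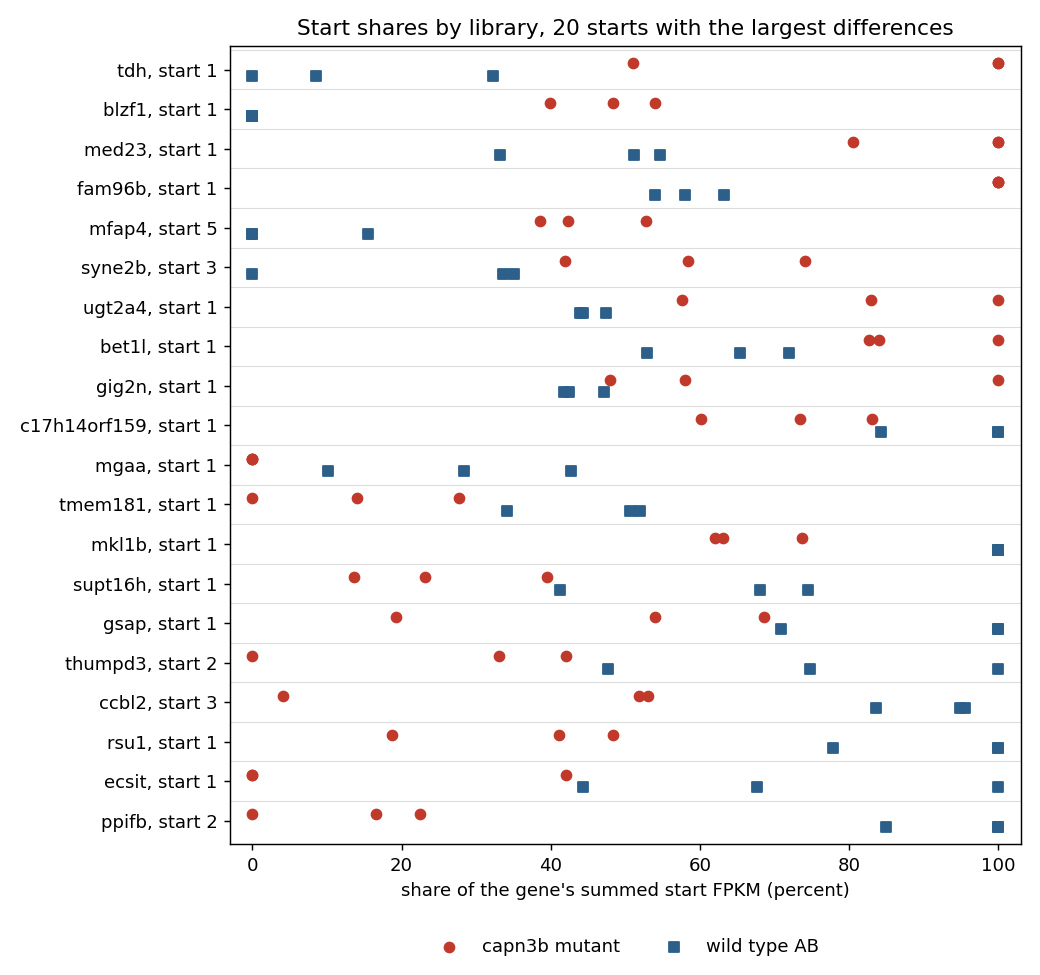
Share of the gene's summed start FPKM (horizontal axis, percent) in each library for the start with the largest difference in each of 20 genes, with capn3b mutant livers as red circles above wild type AB livers as blue squares. The genotypes do not overlap at any of the 20 starts, which is how they were chosen; circles or squares at the same share hide one another.

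Several of the 20 genes encode mitochondrial or metabolic proteins. The largest difference was at ppifb, which encodes a mitochondrial peptidyl-prolyl isomerase of the cyclophilin family. Its second start (chr12:48795659-48795808) held 0%, 22.5% and 16.6% in mutant livers, against 84.9%, 100% and 100% in wild type livers, a difference of -82.0 points (SE 9.08, limma adjusted p = 0.135). All 3 mutant libraries were low and all 3 wild type libraries high, but the mutant libraries did not share a replacement. The third start, 54116 bases further along, held 100%, 77.5% and 0% in mutant livers, against 15.1%, 0% and 0% in wild type livers, and the first start, 58 bases before the second, held 83.4% in mutant library 3 alone. The gene as a whole differed by a log2 fold change of -0.45 in mutant livers (adjusted p = 0.0825).

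The gene tdh encodes threonine dehydrogenase of mitochondrial threonine breakdown. Its first start (chr20:19093096-19093199) held 100%, 100% and 51.0% in mutant livers, against 0%, 32.2% and 8.50% in wild type livers, a difference of 70.1 points (SE 16.2, limma adjusted p = 0.750). The 2 other starts above 0 lie 1380 bases or less downstream, in first exons of 41 and 34 bases. The gene lies on chromosome 20, within 10 Mb of capn3b. In that window 22 of the genes passed the filter and 10 varied. Groups did not overlap at 1 of their 15 varying starts, that of tdh, against 7.28% of varying starts in all genes.

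The gene ecsit encodes an adaptor of Toll signalling that also serves in the assembly of mitochondrial complex I. Its first start (chr7:17564898-17564948) held 0%, 0% and 42.0% in mutant livers, against 67.6%, 44.4% and 100% in wild type livers, and the third start, 746 bases further downstream, took the remainder in each library. The highest mutant library and the lowest wild type library were 42.0% and 44.4%, so the groups came close to touching.

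In ccbl2, which encodes a kynurenine aminotransferase, the third start (chr6:25161530-25161687) held 51.9%, 4.05% and 53.1% in mutant livers, against 83.6%, 95.5% and 94.9% in wild type livers. The 6 starts of ccbl2 do not all lie in the span of 1 gene identifier. In 4 of 6 libraries its recurring starts held under 50% of the FPKM of all starts listed for it, so its shares are uncertain. Whether reads are split between copies of the gene was not tested. In c17h14orf159, named for an open reading frame on human chromosome 14, the first start (chr17:38831238-38831438) held 83.1%, 60.2% and 73.4% in mutant livers, against 100%, 84.3% and 100% in wild type livers.

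For fam96b, a factor of cytosolic iron-sulfur cluster assembly, the first start (chr7:44631519-44631769) held 100% in all 3 mutant livers, against 53.9%, 58.1% and 63.3% in wild type livers. The difference was 41.6 points (SE 6.58, limma adjusted p = 0.220). The third start, 312 bases downstream, accounted for the remainder: it was listed at 0 in all 3 mutant livers and at 5.73, 5.09 and 4.32 FPKM in wild type livers. The level of the first start itself was 8.82, 8.85 and 9.24 FPKM in mutant livers and 6.71, 7.05 and 7.44 FPKM in wild type livers.

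A second group of the 20 acts in the nucleus. The gene mkl1b encodes a myocardin-related coactivator of serum response factor. Its second start (chr12:18622736-18622838) lies 26545 bases inside the gene; it was listed at 1.07, 0.999 and 0.821 FPKM in mutant livers and at 0 in all 3 wild type livers. The first start had 1.75, 1.71 and 2.30 FPKM in mutant livers and 1.97, 1.70 and 2.33 FPKM in wild type livers, so the levels of the upstream start overlapped while the internal start was seen in mutant livers. The share of the first start, 62.0%, 63.1% and 73.7% in mutant livers, against 100% in each wild type liver, differed by -33.7 points (SE 6.88, limma adjusted p = 0.481).

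The starts of med23, a subunit of the Mediator complex, are 14 bases apart with overlapping first exons. The first (chr20:2566756-2566952) held 100%, 100% and 80.6% in mutant livers, against 33.2%, 54.6% and 51.2% in wild type livers, a difference of 47.2 points (SE 9.60, limma adjusted p = 0.481). In supt16h, a subunit of the histone chaperone FACT, both starts were above 0 in all libraries and 27900 bases apart. The first (chr7:1415256-1415629) held 39.5%, 13.6% and 23.1% in mutant livers, against 74.6%, 41.3% and 68.1% in wild type livers; the highest mutant and the lowest wild type library were less than 2 points apart.

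The starts of mgaa, a MAX-binding transcription factor, are 5 bases apart. The first was listed at 0 in all mutant livers and held 10.1%, 28.3% and 42.8% in wild type livers. In mutant library 3 the recurring starts of mgaa held only 39.0% of its listed start FPKM. In thumpd3, named for an RNA-binding THUMP domain, 6 starts lie within 57 bases, and the second held 42.1%, 0% and 33.1% in mutant livers, against 74.8%, 47.7% and 100% in wild type livers. The gene table gives thumpd3 only 0.272 to 0.610 FPKM.

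Another group belongs to the Golgi and other membranes. The gene blzf1 encodes a golgin that tethers Golgi cisternae. Its first start (chr1:496822-496994) was listed at 2.65, 6.54 and 3.55 FPKM in mutant livers and at 0 in all 3 wild type livers. The second start, 2296 bases downstream, was present in every library, with 3.98, 5.58 and 3.80 FPKM in mutant livers and 5.39, 6.42 and 7.86 FPKM in wild type livers. The share of the first start was thus 39.9%, 54.0% and 48.3% in mutant livers, against 0% in each wild type liver, a difference of 47.4 points (SE 7.01, limma adjusted p = 0.220). The gene-level difference was a log2 fold change of 0.08 (adjusted p = 0.833).

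In bet1l, a SNARE of Golgi transport, the first start held 100%, 84.0% and 82.7% in mutant livers, against 65.4%, 72.0% and 52.9% in wild type livers. That of gsap, a gamma-secretase activating protein, held 54.0%, 19.3% and 68.6% in mutant livers, against 100%, 70.8% and 100% in wild type livers. The recurring starts of gsap held 69.0% of its listed start FPKM in mutant library 1. In tmem181, a membrane protein gene, the first start held 0%, 27.7% and 14.1% in mutant livers, against 51.9%, 34.2% and 50.7% in wild type livers. In syne2b, a nuclear envelope nesprin with starts spread over 144790 bases, the third start held 58.5%, 74.1% and 41.9% in mutant livers, against 33.6%, 0% and 35.0% in wild type livers.

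**Figure D4:**
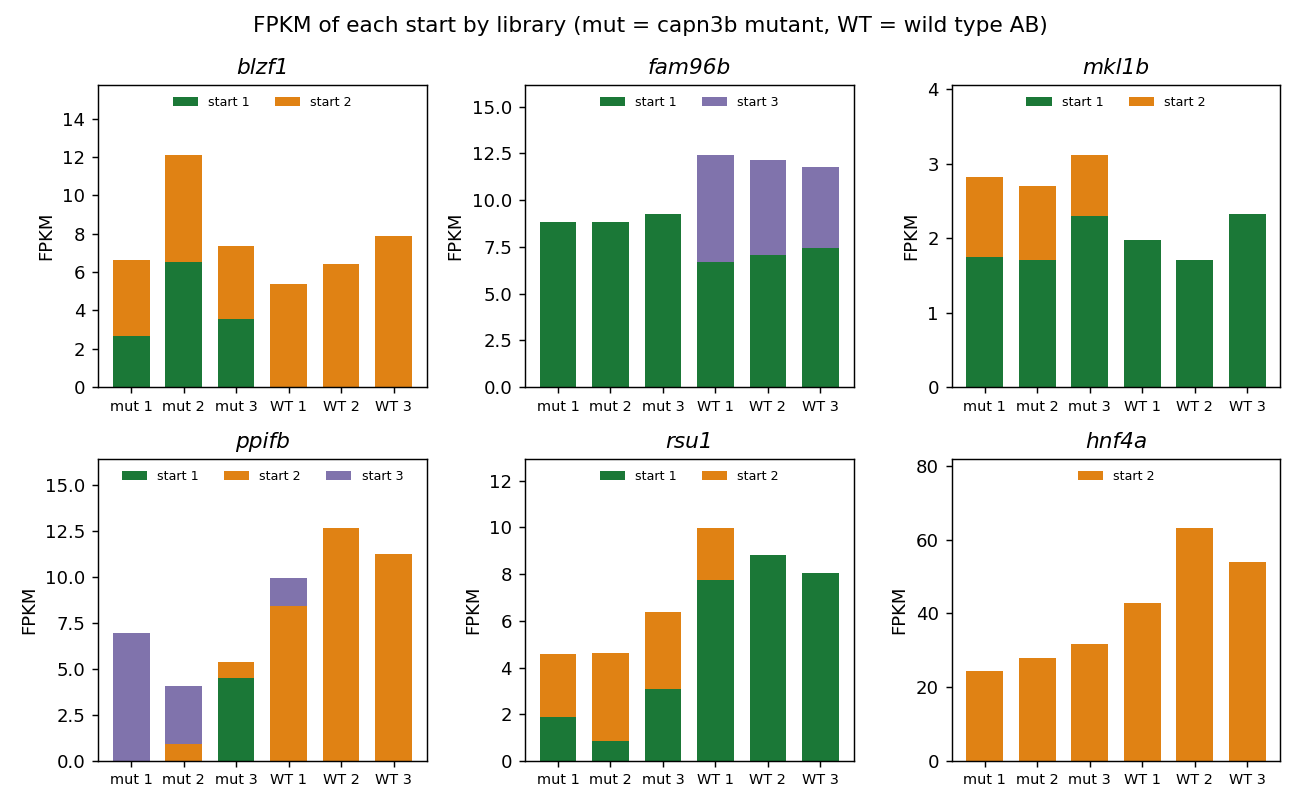
FPKM of each start (vertical axis, stacked by start, numbered in the direction of transcription) in each library, mutant libraries left of wild type libraries, for 6 genes. In blzf1 and mkl1b a start appears in the mutant libraries beside a start present in all 6; in fam96b a start is above 0 in wild type libraries only; hnf4a shows its downstream start alone; starts listed at 0 throughout are not drawn.

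The remaining genes of the 20 are those of an adhesion adaptor, a conjugating enzyme and immune and matrix functions. The gene rsu1 encodes a Ras suppressor found at focal adhesions. Its first start (chr24:32115328-32115479) had 1.88, 0.868 and 3.09 FPKM in mutant livers, against 7.75, 8.83 and 8.03 FPKM in wild type livers. Its second start, 4571 bases downstream, had 2.68, 3.76 and 3.29 FPKM in mutant livers, against 2.21, 0 and 0 FPKM in wild type livers. The share of the first start was 41.2%, 18.8% and 48.4% in mutant livers, against 77.8%, 100% and 100% in wild type livers (difference -56.5 points, SE 11.04, limma adjusted p = 0.481). Of the 20 genes, rsu1 was the only one past the threshold at the gene level (thumpd3 was too low to be tested): it fell in mutant livers, with a log2 fold change of -0.75 (SE 0.18, limma adjusted p = 0.0358). That call was lost without mutant library 1 (adjusted p = 0.115) or 2 (0.111) and without wild type library 1 (0.0936) or 2 (0.0931).

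The gene ugt2a4 encodes a UDP-glucuronosyltransferase, an enzyme that conjugates bile pigments, steroids and drugs. Its 4 starts have first exons of similar length, 745, 747, 770 and 736 bases, spread over 13541 bases. The first (chr5:69174803-69175547) had 127, 122 and 56.8 FPKM in mutant livers and 44.5, 44.0 and 56.8 FPKM in wild type livers. The third had 0, 25.1 and 41.9 FPKM in mutant livers and 57.0, 55.3 and 50.5 FPKM in wild type livers. The first start held 100%, 83.0% and 57.6% in mutant livers, against 43.9%, 44.3% and 47.5% in wild type livers, a difference of 35.0 points (SE 11.6, limma adjusted p = 1), the mutant libraries differing more among themselves than the wild type ones. Whether reads are shared between these first exons was not tested.

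The fifth start of mfap4, a gene expressed in zebrafish macrophages, held 42.3%, 38.5% and 52.8% in mutant livers, against 15.5%, 0% and 0% in wild type livers. The recurring starts of mfap4 held 4.39% of its listed start FPKM in mutant library 1 and 1.28% in wild type library 1, and they do not all lie in the span of 1 identifier, so its shares are uncertain. The summed macrophage markers of both genotypes are given above; their part in this share was not tested. Of a family of virus-induced fish genes, gig2n is annotated as a processed transcript and not as protein-coding. Its starts lie 10 bases apart, and the first held 48.0%, 58.0% and 100% in mutant livers, against 41.8%, 47.2% and 42.5% in wild type livers.

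At 70 of the 1223 genes 2 or more starts were above 0 in all 6 libraries. Their leading start had a median share of 59.6%, the leading 2 starts were more than 1000 bases apart in 36 genes and within 50 bases in 14, and in 63 all starts lay in the span of 1 gene identifier. Taking the start with the largest difference in each gene, the median absolute difference between genotypes was 5.93 points, against a median pooled SD of 12.1 points. At that start the groups did not overlap in 13 of the 70 genes. At any tested start they did not overlap in 14 of the 70, against 43 of all 497 varying genes (8.65%). These sets are not alike. A gene with more varying starts has more chances to be counted, and a start with 5 equal libraries and 1 apart can never separate the genotypes. Such starts lie in 164 of the 497 genes. The part of either in the difference was not tested. For the start with the largest difference, 3 of the 70 genes had an unadjusted p under 0.05 (limma). At any tested start, 27 of all 497 varying genes had one. The lowest of the 3 was 0.0182 at baxa, whose starts do not lie in 1 gene identifier.

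Several of these genes kept close to the same division of starts in both genotypes. The genes named in this and the next paragraph were chosen after their values were seen. In lgals3a, which encodes a galectin, the first start averaged 69.4% in mutant livers and 71.0% in wild type livers (pooled SD 3.83 points). That of fndc3a, a fibronectin type III domain protein, averaged 56.4% in mutant livers and 54.2% in wild type livers (pooled SD 2.56 points), with the other start 9758 bases away. For add3a, encoding the cytoskeletal protein adducin, the first start averaged 17.98% in mutant livers and 18.5% in wild type livers (pooled SD 4.25 points), over a distance of 136675 bases. In ndufa1, a subunit of complex I, it averaged 96.7% in mutant livers and 96.8% in wild type livers (pooled SD 0.722 points). At tegt, the zebrafish gene of BAX inhibitor 1, 2 starts 711 bases apart were about equal, the first averaging 46.4% in mutant livers and 48.4% in wild type livers (pooled SD 5.27 points).

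In others of the 70 the libraries separated by genotype, though none passed the threshold. The first start of erlin1, an ER membrane protein of lipid control, held 30.3%, 33.8% and 30.8% in mutant livers, against 19.6%, 22.4% and 20.2% in wild type livers, with the starts 8 bases apart. Recurring starts held 73.5% and 74.0% of the listed start FPKM of erlin1 in wild type libraries 2 and 3. The first start of baxa, the pro-apoptotic BAX, held 75.4%, 73.1% and 78.3% in mutant livers, against 94.5%, 98.6% and 94.3% in wild type livers. The starts of baxa do not all lie in the span of 1 gene identifier. The second start of arpp19b, an inhibitor of protein phosphatase 2A, held 71.7%, 71.0% and 66.4% in mutant livers, against 48.0%, 61.1% and 42.0% in wild type livers, with 55195 bases to the other used start. The span of arpp19b overlaps that of bet1l, described above, on the same strand. Whether reads are shared between arpp19b and bet1l was not tested. In gbp1, an interferon-induced GTPase, the first start held 35.0%, 47.5% and 56.1% in mutant livers, against 56.4%, 65.7% and 79.5% in wild type livers, so that the groups nearly touched.

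The genes cd9a and glrx, also chosen after their values were seen, are not among the 70, since a start was listed at 0 in some libraries. In cd9a, a tetraspanin, the second start, 6767 bases from the first, had 44.8, 47.4 and 48.0 FPKM in mutant livers, against 33.99, 0 and 0 FPKM in wild type livers. In glrx, a glutaredoxin, the second start was listed at 0 in mutant livers and held 18.3%, 16.5% and 16.7% in wild type livers. The third start, 66 bases downstream, has its first exon inside that of the second. It held 17.995% in mutant library 1 and was listed at 0 in every other library. The fourth start held 82.005%, 100% and 100% in mutant livers, against 81.7%, 83.5% and 83.3% in wild type livers, so the genotypes overlapped there.

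Genes were also grouped by a fixed list of symbol beginnings for each function, and no start of any group passed the threshold. The lists do not hold every gene of a function. The transcription factor mgaa, described above, is in none of them. Of 43 genes with symbols listed for transcription factors and nuclear receptors, 22 passed the filter and 10 varied. Over the varying starts of these genes the median absolute difference was 8.01 points, against 9.40 points over all. One of them, thraa, a thyroid hormone receptor, had starts whose groups did not overlap: the first (chr3:34623764-34624097) held 44.996%, 18.9% and 30.5% in mutant livers, against 46.7%, 54.0% and 58.7% in wild type livers (limma unadjusted p = 0.0503). In pparg, a nuclear receptor of lipid storage, the first start held 42.3%, 100% and 69.7% in mutant livers, against 100%, 52.9% and 0% in wild type livers, a range as wide within a genotype as it can be. The recurring starts of pparg held 47.1% of its listed start FPKM in wild type library 1.

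Among 43 genes of translation, 41 passed the filter and 9 varied, with a median absolute difference of 16.9 points over 14 starts; the values of rpl35a and eif5a are given above. Solute carriers had 20 of 50 genes past the filter and 9 varying, RNA-binding and splicing factors 17 of 28 and 7 varying, and genes of ubiquitin and the proteasome 16 of 21 and 4 varying. Kinases and phosphatases had 16 of 38 and 5 varying, and complement genes 2 of 3 and 1 varying. Genes of chaperones and of ER folding or transport had 16 of 19 and 5 varying. Of the genes for plasma proteins (9, of which 2 passed) and cytochrome P450 enzymes (5, of which 3 passed) none varied. The start of thraa was the only one in these groups to separate the genotypes, 1 of 12 varying starts of its group. The other groups with varying genes had 2 to 14 varying starts each. Over all genes 51 of 701 varying starts did so (7.28%).

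The largest differences of each group mostly rested on 1 or 2 libraries. The first start of slc37a1, a sugar phosphate transporter, held 100%, 100% and 45.1% in mutant livers, against 100% in every wild type liver. In slc35b3, a carrier of the sulfate donor PAPS into the Golgi, the first start was listed at 0 in mutant livers and held 43.6%, 0% and 0% in wild type livers. For ptbp2b, a splicing regulator, the first start held 42.1%, 100% and 100% in mutant livers, against 100% in every wild type liver. Recurring starts held 45.5% of the listed start FPKM of ptbp2b in wild type library 3. The first start of srsf4, a splicing factor, held 100%, 80.8% and 72.7% in mutant livers, against 100%, 100% and 75.9% in wild type livers. In sec24b, of the COPII coat, the first start held 100% in every mutant liver, against 69.5%, 100% and 38.9% in wild type livers. Groups overlapped in each of these genes.

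In the other groups the genotypes also overlapped at every such start. In psmc1a, a proteasome ATPase, the first start held 100%, 78.1% and 56.5% in mutant livers, against 100%, 100% and 91.6% in wild type livers. In fbxo11a, of a ubiquitin ligase, it held 56.5%, 100% and 53.1% in mutant livers, against 63.2%, 50.9% and 52.8% in wild type livers. Recurring starts held 57.5% to 66.2% of the listed start FPKM of fbxo11a. In ppp1r10, a regulator of protein phosphatase 1, the first start held 100%, 100% and 79.5% in mutant livers, against 19.98%, 70.8% and 100% in wild type livers. The second start of map4k5, a kinase gene, and the third begin at the same base and differ in the donor, and the second held 77.2%, 33.5% and 39.1% in mutant livers, against 78.2%, 84.4% and 34.7% in wild type livers. In c6, of the terminal complement pathway, the first start held 81.6%, 100% and 79.5% in mutant livers, against 100% in every wild type liver. The fourth start of c6, which took the remainder, begins 91935 bases further along and does not lie in the same gene identifier as the others.

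Whole-gene levels were a separate measure. By the deposited table of gene FPKM, 1268 of 11164 tested genes (11.4%) changed by limma on log2(FPKM + 1), 660 higher (5.91%) and 608 lower (5.45%) in mutant livers. Without 1 library the count was 516 or 536 (mutant library 1 or 2) and 801 or 414 (wild type library 1 or 2). Of the 1223 genes that passed the filter on start sums, 1206 were tested at the gene level and 101 of these changed (8.37%), 50 higher and 51 lower. The start filter asks for 1 FPKM in every library and the gene-level filter for 1 FPKM in 3 libraries, so the 2 percentages are of unlike sets. Among the 487 tested genes whose start shares varied 34 changed (6.98%), and among the 719 with 1 used start 67 changed (9.32%).

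An example of a change in level with the same start in use was hnf4a, a nuclear receptor that controls hepatocyte genes, named here after its values were seen. Its upstream start (chr23:25906148-25906223) was listed at 0 in all 6 libraries. Its downstream start (chr23:25930000-25930219), 23852 bases away, carried 100% of the FPKM, with 24.4, 27.9 and 31.8 FPKM in mutant livers, against 42.9, 63.0 and 53.9 FPKM in wild type livers. The gene fell in mutant livers by 0.90 on the log2 scale (SE 0.16, limma adjusted p = 0.0158). That call was lost without mutant library 1 (adjusted p = 0.0614) or 2 (0.0533) or wild type library 2 (0.0609). All 3 mutant libraries lay below all 3 wild type libraries.

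The glycolytic gene gapdh, with 1 used start, fell too, by 0.63 on the log2 scale (SE 0.14, limma adjusted p = 0.0321), with adjusted p between 0.0519 and 0.0946 without mutant library 1, 2 or 3 or wild type library 2 or 3. In the other direction, c6 rose by 0.51 (SE 0.13, limma adjusted p = 0.0409) and sec22ba, a SNARE of ER to Golgi transport, by 0.59 (SE 0.13, limma adjusted p = 0.0290). Both calls were lost whichever of the 6 libraries was left out, with adjusted p of 0.0752 to 0.112 for c6 and 0.0556 to 0.0928 for sec22ba. The gene-level values of c6 are those of 1 of its 2 gene identifiers, the one that holds its first start. The second start of sec22ba held 100% in all but wild type library 2 (73.3%).

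Calpain genes are members too, though capn3b and capn3a have 1 recurring start each and are not. The genes of this paragraph were chosen after their values were seen. capns1b, the calpain regulatory subunit, used the first of 2 starts (chr15:29183187-29183425) in every library, with 23.7, 16.9 and 19.9 FPKM in mutant livers and 20.1, 20.5 and 18.7 FPKM in wild type livers. The first start of capn8 (chr22:26380642-26380915) was listed at 0 in all mutant livers and had 1.31, 0.744 and 1.15 FPKM in wild type livers, and its second start, 207144 bases away, was listed at 0 in all 6. The first start of capn2l (chr22:26423303-26423589) had 0.0217, 0.239 and 0.0210 FPKM in mutant livers, against 1.73, 1.13 and 1.82 FPKM in wild type livers. Its second start, 193732 bases away, had 0.0213, 0.107 and 0.0408 FPKM in mutant livers and was listed at 0 in wild type livers. Both genes failed the filter of 1 FPKM in every library and were not in the test above. With no filter, the share of the first start of capn2l differed by -48.8 points (SE 10.9, limma adjusted p = 0.722), and capn8 was not tested. Whether starts so far apart belong to separate copies was not tested.

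With no filter on low values 6 starts passed the threshold, all in genes whose recurring starts summed to under 1 FPKM in some library. In vetz, an adhesion protein gene, the first start (chr4:25923231-25923376) had 0.507, 0.745 and 0.679 FPKM in mutant livers and was listed at 0 in wild type livers, which used either the second start or the third one. In pls1, an actin-bundling plastin, the second start had 0.474, 0.646 and 0.545 FPKM in mutant livers and was listed at 0 in wild type livers, while the first, 9175 bases upstream, was listed at 0 in mutant livers and at 0.101, 0.222 and 0.123 FPKM in wild type livers. In fam83d, a spindle protein gene, the first start was listed at 0 in mutant livers and had 0.777, 0.408 and 0.615 FPKM in wild type livers. The adjusted p was 0.00947 for vetz and pls1 and 0.0249 for fam83d (limma, no filter). In vetz and pls1 the first start held 0% or 100% throughout each genotype. With no spread between libraries of a genotype, their p-values rest on the spread of other starts. Per library, reads recovered for the gene ranged from 27 to 59 in vetz, from 6 to 34 in pls1 and from 13 to 68 in fam83d.

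The other 3 were stab2, dock9b and ppfibp2b. The second start of stab2, a scavenger receptor of sinusoidal endothelium, had 10.4, 6.97 and 8.73 FPKM in mutant livers and was listed at 0 in wild type livers. The gene table gives stab2 as a whole only 0.110, 0.159 and 0.254 FPKM in mutant livers and 0.0888, 0.0143 and 0.0440 FPKM in wild type livers, and the first exon of that start is 29 bases long. The third start of dock9b, a guanine nucleotide exchange factor, was listed at 0 in mutant livers and held 77.2%, 76.2% and 84.3% in wild type livers. In ppfibp2b, a liprin, the first start held 100%, 75.9% and 100% in mutant livers and was listed at 0 in wild type livers, but the recurring starts held only 11.1% of its start FPKM in mutant library 1 and 11.3% in wild type library 1. The gene table gives ppfibp2b as a whole 5.58, 6.03 and 6.22 FPKM in mutant livers and 5.66, 3.92 and 3.91 FPKM in wild type livers.

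Leaving clone names aside, ctbp2a had the most recurring starts, with 9, and clasp2 had 7. A further 20 genes had 6, arvcfb among them. Neither ctbp2a, clasp2 nor arvcfb passed the filter, while 8 of the 20 genes with 6 starts did. For clasp2, a microtubule-binding protein, the recurring starts were listed above 0 at the first start only, at 1.39, 0 and 0.959 FPKM in mutant livers and 0 in every wild type liver, while the gene table gives 5.27, 5.85 and 5.28 FPKM in mutant livers and 5.34, 5.47 and 5.42 FPKM in wild type livers. Most of its FPKM was thus under starts listed in some libraries only. Over the 1223 genes that passed, 1022 had all their start FPKM in the recurring starts in every library, and 198 had under 90% there in some library. Coverage was lower over all start entries of a library. Positions listed in all 6 libraries under the same gene entry held 46.0% to 54.3% of start FPKM in mutant libraries. In wild type libraries they held 20.2% (library 2) to 61.7% (library 1). An entry that names no gene had 1390391 FPKM in wild type library 2.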

How the data were processed

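Per the labels' protocols, RNA from dissected adult livers was made into standard Illumina libraries. The authors deposited a table of gene FPKM and, for each library, a list of start, end and splicing events with FPKM; per the submitters' processing notes, the build was GRCz11 and DESeq2 was among the tools. Neither labels nor headers name the aligner, the assembler or the event caller. FPKM of a start is an estimate from short reads, so shares within a gene carry the error of that assignment, and event FPKM give no depth per start. Intervals from reads are therefore not given.

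Of 3795 gene entries with 2 or more starts in all 6 libraries, 353 that name several genes and 124 symbols on more than 1 chromosome or strand were left out. Shares were tested in genes with a start sum of at least 1 FPKM in every library, with limma 3.58.1 (R 4.3.3) on percent shares, two-sided, with Benjamini-Hochberg adjustment over 2013 starts and a threshold of 0.05. Of a gene with 2 starts only the upstream one was tested. Of a gene with more starts all were tested, mirrored pairs included. Starts with the same share in every library (SD under 1e-06 points) could not be fitted and entered the limma adjustment as not different, with the highest p-value there is. An exact permutation test of 3 against 3 cannot go below 0.1. Gene levels were tested on log2(FPKM + 1) for genes with at least 1 FPKM in 3 libraries; a fold change on this scale understates that of low genes. Differences are mutant minus wild type. The share test was also run on simulated shares with normal noise and less spread than the median varying start had here. That run therefore does not measure how many real differences the test would miss in these data. Python 3.11.15, pandas 2.3.3, numpy 2.4.6 and matplotlib 3.10.9 were used.

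Named genes were taken by rule: up to 20 genes with the largest difference among starts past the threshold or, failing these, with groups that do not overlap; the 10 most abundant; 5 whose leading start differs between genotypes; 3 with the most starts; and 2 of each functional group. Clone names were passed over. One gene under this rule is not reported here. Groups were formed from symbols. Members and lists were chosen with earlier results of these data known. Coordinates are those of the deposited lists. Start sequences are not analysed here.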

Additional observations from a re-analysis of the deposited data

How the results depend on the processing

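No start passed the threshold under 19 of the 21 alternatives; with no filter on low values 6 starts in 6 genes passed, and with constant starts left out of the adjustment 1 start in 1 gene did. Leaving out each library in turn gave 0 to 0 starts and genes, with 29 to 44 starts at an unadjusted p under 0.05. The smallest adjusted p was 0.0521 with a filter of 5 FPKM and 0.0567 on log2 ratios with a pseudocount of 1 FPKM. The other settings were log2 ratios with a pseudocount of 0.1, an arcsine transform, an intensity trend, robust moderation and merging of starts within 50 bases. Chosen after seeing the data were every gene entry included, all listed start FPKM as the denominator, matching by donor, genes with all starts in 1 identifier, and leaving out genes within 10 Mb of capn3b.

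The labels number the libraries 1 to 3 in both genotypes. Deviations of the shares from the genotype means correlated between libraries of the same number at 0.0213, 0.00889 and -0.0477. Between libraries of different numbers the correlations ranged from -0.0600 to 0.0497. The shares thus showed no pairing by number, but with 3 libraries a genotype these values cannot exclude a shared batch or pairing. With the replicate block 0 starts and 0 genes passed, 34 starts had an unadjusted p under 0.05, and 950 genes passed at the gene level.

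Of 725 values of 36 named starts, 714 kept their direction and their side of the threshold or moved less than the spread, and 4 reversed: fbxo11a start 1 at -0.81 points without mutant library 2 (up to 22.7 points with another library left out), pparg start 1 at -5.79 points without wild type library 3 (up to 44.2 points with another left out), and ptbp2b start 1 at 0.74 points with all listed FPKM as the denominator and 6.997 points with matching by donor. All 4 are smaller than the SD of that start among mutant livers. The others were 6 that moved further and 1, ppifb, that came past the threshold (adjusted p = 0.0469 with constant starts left out, against 0.0746 to 0.829 under its other alternatives). The gene-level count of 1268 fell to 592 with no filter, where 23354 genes enter the adjustment, and ranged from 414 to 1134 with 1 library left out. It was 1186 with a pseudocount of 0.1, 920 with a filter of 5 FPKM and 1420 with median scaling. With 3 libraries a genotype, the median difference of 9.40 points was below the median pooled SD of 14.4 points. The difference is of genotype means and the SD of single libraries, so setting them side by side is no test.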
